A study of Mus musculus with 12 samples.

Results

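The genes described here are 30 genes of B cells and of the stroma of lymph nodes, out of 39017 genes in the count table of a study of mouse mammary tumours. They were taken by symbol: 24 belong to lymphocytes and 6 to node stroma, and where a symbol had several gene identifiers the one with most counts was used. The tumours grew in the fat pad of the fourth mammary gland of female FVB/N mice that were 8 to 12 weeks old when 250000 NIC cells were injected. NIC cells are an ErbB2-positive mouse breast cancer line that lacks p66ShcA, an isoform of the Shc1 adaptor protein. The p66High cells had been made to overexpress p66ShcA constitutively, and the p66Low cells had not. The aggressive populations had been passaged serially through mammary fat pads and explanted, and the parental ones had not. The 4 groups were p66High aggressive, p66High parental, p66Low aggressive and p66Low parental, with 3 bulk tumours each. The labels do not say whether a line was 1 clone, whether lymph nodes were removed, or which tumours came from different mice. Replicates 1 and 2 of p66High aggressive tumours share a number in their titles, and so do replicates 1 and 2 of p66High parental tumours. In both pairs the number is followed by L in 1 title and R in the other. Each p66High group may therefore hold fewer than 3 mice. The p-values therefore cover only the spread among tumours as sampled, which may be technical in part.

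B cells develop in bone marrow and gather in the follicles of lymph nodes. Stromal cells of the node lay down the chemokines Ccl21, Ccl19 and Cxcl13, which draw in cells that carry the receptors Ccr7 and Cxcr5, and lymphocytes enter from the blood through high endothelial venules. Lymphotoxins made by lymphocytes keep this stroma differentiated. In the mouse, the fat pad of the fourth mammary gland normally holds the inguinal lymph node. In bulk tumour RNA, fewer cells of a type and less RNA per cell cannot be told apart.

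Most of the 30 genes were at high levels together in 3 of the 12 tumours, which were p66High parental replicate 3 and p66Low aggressive replicates 1 and 2. Levels are in CPM (counts per 1 M of a TMM-scaled library), and the values of a group are listed for replicates 1, 2 and 3. The summed level of the 6 stroma genes was 1.93, 0.550 and 1.42 CPM in p66High aggressive tumours, 3.72, 2.57 and 56.3 CPM in p66High parental tumours, 156, 232 and 2.04 CPM in p66Low aggressive tumours, and 2.97, 0.893 and 1.87 CPM in p66Low parental tumours. For 9 B cell genes (Cd79a, Cd79b, Ms4a1, Cd22, Pax5, Blk, Cr2, Fcer2a and Faim3) the sum was 1.88, 1.53 and 0.820 CPM in p66High aggressive tumours, 2.53, 1.34 and 45.2 CPM in p66High parental tumours, 153, 214 and 3.15 CPM in p66Low aggressive tumours, and 1.43, 1.14 and 1.09 CPM in p66Low parental tumours. The 2 sums rank the 3 tumours alike, and the ratio of the B cell sum to the stroma sum was 0.802 in p66High parental replicate 3, 0.982 in p66Low aggressive replicate 1 and 0.924 in p66Low aggressive replicate 2. Every one of the 3 tumours exceeded all other 9 in 25 of the 30 genes, of which 24 are among the 29 that passed the filter on low counts. The same held for 480 of all 19370 genes that passed it (2.48%). The exceptions were Cd72, Blnk, Tnfrsf13c, Igj and Lta. In 28 of the 30 genes p66Low aggressive replicate 2 was the highest of the 12 tumours, the other 2 being Blnk and Madcam1. The share of all genes that were highest in p66Low aggressive replicate 2 was not counted. The 3 tumours were picked out by these levels, so the counts are a description.

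**Figure D1:**
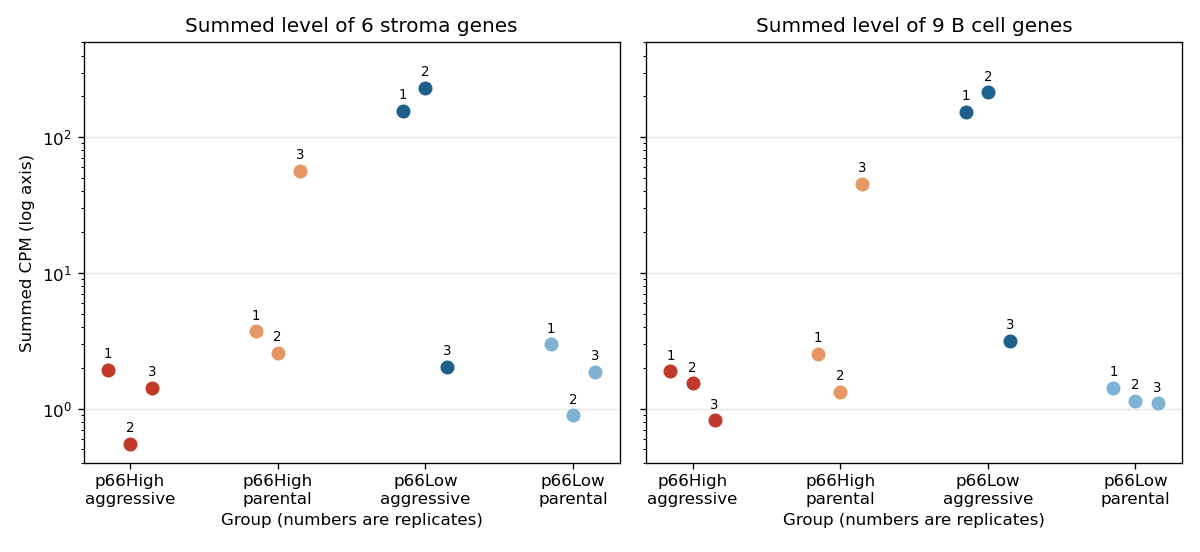
Summed CPM (log axis) of the 6 stroma genes and of the 9 B cell genes in each tumour, by group, with the replicate number above each point. Replicate 3 of p66High parental and replicates 1 and 2 of p66Low aggressive tumours lie at 45.2 to 231.7 CPM in the panels, and the other 9 tumours at 0.550 to 3.72 CPM.

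The library of p66High parental replicate 3 was the deepest, with 76.1 M counts, and that of p66Low aggressive replicate 1 the shallowest, with 17.4 M. An undetected gene was given a floor of 3 counts, or 0.0394 CPM in the deepest and 0.156 CPM in the shallowest library. Of the 3 tumours with node genes, p66High parental replicate 3 and p66Low aggressive replicate 1 had less of tumour epithelium genes than any other tumour: the sum of 6 epithelial genes including Epcam and Erbb2 was 1966, 2044 and 2374 CPM in p66High parental replicate 3 and p66Low aggressive replicates 1 and 2, and 2135 to 3069.6 CPM in the other 9 tumours. The sum of 10 adipocyte genes was 164, 426 and 242 CPM in the same 3 tumours and 10.2 to 439 CPM in the other 9 tumours. The part of these in the results was not tested.

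The antigen receptor genes of B cells were low outside the 3 tumours, though Cd79b had counts in all 12. Cd79a and Cd79b encode the signalling chains of the B cell receptor. Cd79a had 0.127, 0.0786 and 0.129 CPM in p66High aggressive tumours, 0.180, 0 and 2.14 CPM in p66High parental tumours, 9.74, 14.1 and 0.143 CPM in p66Low aggressive tumours, and 0.108, 0 and 0.0260 CPM in p66Low parental tumours. Cd79b had 0.711, 0.628 and 0.216 CPM in p66High aggressive tumours, 1.01, 0.915 and 6.73 CPM in p66High parental tumours, 22.7, 32.7 and 0.400 CPM in p66Low aggressive tumours, and 0.648, 0.0812 and 0.130 CPM in p66Low parental tumours. Ms4a1 (CD20, a surface protein of mature B cells; ENSMUSG00000024673, chr19:11249675-11266241, minus strand in mm10 and GENCODE vM21) had 0.102, 0.0786 and 0 CPM in p66High aggressive tumours, 0.113, 0.0704 and 8.50 CPM in p66High parental tumours, 31.7, 42.2 and 0.171 CPM in p66Low aggressive tumours, and 0, 0.0812 and 0 CPM in p66Low parental tumours. In all of these genes the 3 tumours lay above the other 9 tumours, and the lowest of the 3 was 49.7-fold above the highest of the 9 for Ms4a1 and 6.63-fold for Cd79b.

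Complement and Fc receptors of mature B cells were also split between the 3 tumours and the other 9, and the lowest of the 3 was 52.9-fold above the highest of the 9 for Cr2 and 22.0-fold for Fcer2a, where the highest of the 9 had 10 counts in both genes. Cr2, the complement receptor of B cells and follicular dendritic cells, had 0 CPM in all 3 p66High aggressive tumours, 0.226, 0 and 11.9 CPM in p66High parental tumours, 37.1, 51.7 and 0.0999 CPM in p66Low aggressive tumours, and 0.0540, 0.162 and 0.0520 CPM in p66Low parental tumours. Fcer2a (CD23, the low affinity IgE receptor) had 0 CPM in all 3 p66High aggressive tumours, 0.0902, 0 and 3.14 CPM in p66High parental tumours, 10.7, 14.0 and 0.143 CPM in p66Low aggressive tumours, and 0 CPM in all 3 p66Low parental tumours. Faim3, an Fc receptor for IgM, had 0 CPM in all 3 p66High aggressive tumours, 0, 0 and 1.36 CPM in p66High parental tumours, 3.96, 7.42 and 0.0285 CPM in p66Low aggressive tumours, and 0.0540, 0 and 0 CPM in p66Low parental tumours, with no more than 2 counts in any of the other 9 tumours. Cr2, Fcer2a and Faim3 had no count in any p66High aggressive tumour, and Fcer2a none in any p66Low parental tumour. A second Cr2 identifier had 99 counts in p66High parental replicate 3, 103 and 500 in p66Low aggressive replicates 1 and 2, and 0 in the other 9 tumours. Fcrla, an intracellular Fc receptor-like protein of B cells, had 0.254, 0.0786 and 0.0431 CPM in p66High aggressive tumours, 0.135, 0.0704 and 1.17 CPM in p66High parental tumours, 6.20, 7.49 and 0.771 CPM in p66Low aggressive tumours, and 0, 0.0812 and 0 CPM in p66Low parental tumours. In Fcrla p66Low aggressive replicate 3 also lay above the other 8 tumours.

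Among inhibitory and membrane-organising receptors the lowest of the 3 tumours was 3.47-fold above the highest of the other 9 for Cd22, 2.23-fold for Cd37 and 0.388-fold for Cd72. Cd22 binds sialic acid and dampens the B cell receptor, and it had 0.838, 0.746 and 0.431 CPM in p66High aggressive tumours, 0.744, 0.352 and 7.39 CPM in p66High parental tumours, 24.1, 34.1 and 2.13 CPM in p66Low aggressive tumours, and 0.459, 0.812 and 0.884 CPM in p66Low parental tumours. Cd37, a tetraspanin of lymphocytes, had 1.95, 1.65 and 0.431 CPM in p66High aggressive tumours, 2.3, 1.90 and 6.84 CPM in p66High parental tumours, 20.5, 34.2 and 3.07 CPM in p66Low aggressive tumours, and 1.998, 0.771 and 1.61 CPM in p66Low parental tumours. Cd72 (ENSMUSG00000028459, chr4:43446462-43454628, minus strand), an inhibitory co-receptor of B cells, had 1.04, 1.41 and 1.25 CPM in p66High aggressive tumours, 1.89, 4.50 and 5.42 CPM in p66High parental tumours, 11.8, 22.0 and 14.0 CPM in p66Low aggressive tumours, and 4.10, 7.95 and 3.07 CPM in p66Low parental tumours. Its levels did not follow the 3 tumours: p66Low aggressive replicate 3 had more Cd72 than p66Low aggressive replicate 1, and p66Low parental replicate 2 had more than p66High parental replicate 3.

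Of the signalling genes downstream of the receptor, Blk and Bank1 followed the 3 tumours and Blnk did not. Blk, a Src family kinase of B cells, had 0.102, 0 and 0 CPM in p66High aggressive tumours, 0.0226, 0 and 1.64 CPM in p66High parental tumours, 5.52, 8.24 and 0.0428 CPM in p66Low aggressive tumours, and 0.0540, 0 and 0 CPM in p66Low parental tumours. Bank1, a scaffold protein of B cells, had 0.761, 0.746 and 0.259 CPM in p66High aggressive tumours, 0.902, 0.985 and 6.90 CPM in p66High parental tumours, 20.3, 26.3 and 0.171 CPM in p66Low aggressive tumours, and 0.540, 0.568 and 0.624 CPM in p66Low parental tumours. Blnk, the adaptor that links Syk to downstream enzymes, had 29.9, 27.3 and 17.8 CPM in p66High aggressive tumours, 21.2, 15.2 and 16.2 CPM in p66High parental tumours, 20.1, 23.8 and 16.4 CPM in p66Low aggressive tumours, and 19.7, 18.2 and 11.6 CPM in p66Low parental tumours. Blnk lay between 11.6 and 29.9 CPM in every tumour, with the groups overlapping in each comparison.

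**Figure D2:**
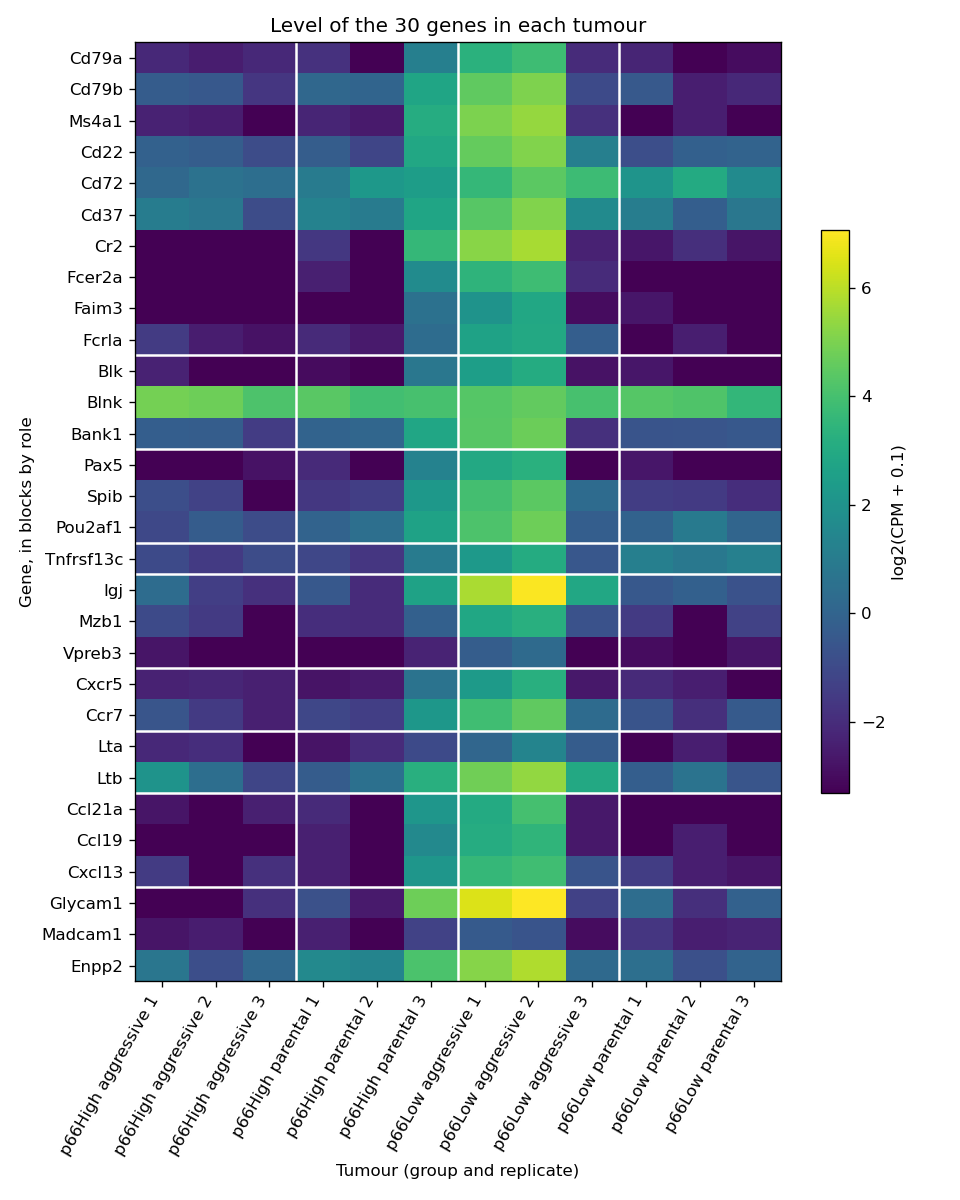
Level of each of the 30 genes, as log2(CPM + 0.1), in rows by role and in columns by tumour, grouped from p66High aggressive on the left to p66Low parental on the right. Replicate 3 of p66High parental and replicates 1 and 2 of p66Low aggressive tumours are brighter than the other columns in most rows, and Blnk is bright in all 12 columns.

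Transcriptional regulators of the B cell programme were high in the tumours where the receptors were high. Pax5, which maintains B cell identity, had 0, 0 and 0.0431 CPM in p66High aggressive tumours, 0.135, 0 and 2.32 CPM in p66High parental tumours, 7.61, 9.60 and 0 CPM in p66Low aggressive tumours, and 0.0540, 0 and 0 CPM in p66Low parental tumours. Spib, an Ets factor related to PU.1, had 0.457, 0.314 and 0 CPM in p66High aggressive tumours, 0.226, 0.281 and 4.51 CPM in p66High parental tumours, 15.4, 21.5 and 1.14 CPM in p66Low aggressive tumours, and 0.270, 0.244 and 0.156 CPM in p66Low parental tumours. Pou2af1, a co-activator that binds Oct factors on the octamer motif, had 0.381, 0.707 and 0.431 CPM in p66High aggressive tumours, 0.880, 1.27 and 6.27 CPM in p66High parental tumours, 17.8, 27.1 and 0.756 CPM in p66Low aggressive tumours, and 0.864, 1.83 and 0.936 CPM in p66Low parental tumours. All were highest in the same 3 tumours.

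Promoters of members were read from the RefSeq table (build GRCm38.p6) as the 250 bases before the annotated start, and 23 of the 30 members had an entry. Cd22, Blnk and Vpreb3 are shown because their windows hold letters that factors of this programme are known to bind. All motifs were searched on both strands, and no match in a member overlapped another. The octamer ATGCAAAT was found in 2 of the 23 members with an entry (Blnk and Vpreb3) and in 1.60% of all 32851 windows. A gene can have several windows, as Fcer2a did. An EBF1-type motif, TCCCTGGGGA in Cd22 and searched with any letters at its 2 middle places, was in no other member with an entry and in 0.779% of all windows. The PU.1-type letters GAGGAAG were in Ccl21a, Cd37, Cd72 and Ltb and in 10.6% of all windows. A match is a description of the sequence and not a binding site. Capitals mark the match, at position -49 from the start in Cd22 (chr7:30879029-30879278, minus strand), -130 in Blnk (chr19:40994222-40994471, minus strand) and -45 in Vpreb3 (chr10:75948050-75948299, plus strand).
Cd22: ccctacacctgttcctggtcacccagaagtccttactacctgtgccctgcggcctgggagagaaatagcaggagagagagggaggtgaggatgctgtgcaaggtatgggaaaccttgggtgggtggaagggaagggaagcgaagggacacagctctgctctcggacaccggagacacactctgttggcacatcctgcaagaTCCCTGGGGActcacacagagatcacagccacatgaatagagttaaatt
Blnk: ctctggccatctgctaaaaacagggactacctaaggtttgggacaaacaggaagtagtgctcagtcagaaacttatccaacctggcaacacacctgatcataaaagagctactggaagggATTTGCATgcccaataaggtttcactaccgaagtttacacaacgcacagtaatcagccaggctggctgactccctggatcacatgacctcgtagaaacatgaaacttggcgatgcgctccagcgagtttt
Vpreb3: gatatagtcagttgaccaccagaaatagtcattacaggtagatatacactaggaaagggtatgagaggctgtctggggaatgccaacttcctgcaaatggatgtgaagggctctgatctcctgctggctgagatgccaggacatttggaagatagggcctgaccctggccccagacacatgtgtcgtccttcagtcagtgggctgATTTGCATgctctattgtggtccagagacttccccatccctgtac
Blnk and Vpreb3 share the octamer letters. Blnk had counts in all 12 tumours, and Vpreb3 had none in 6 of them and did not pass the filter on low counts.

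Tnfrsf13c, the receptor for the B cell survival factor BAFF, had 0.406, 0.236 and 0.431 CPM in p66High aggressive tumours, 0.361, 0.211 and 1.90 CPM in p66High parental tumours, 4.85, 8.19 and 0.599 CPM in p66Low aggressive tumours, and 2.11, 1.70 and 2.21 CPM in p66Low parental tumours. It was lowest in p66High tumours other than p66High parental replicate 3, and all p66Low parental tumours had more than p66Low aggressive replicate 3.

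Genes of antibody secretion varied more among the 3 tumours than most members. Igj (ENSMUSG00000067149, chr5:88519809-88527891, minus strand), the J chain that joins IgM and IgA into polymers, had 1.17, 0.275 and 0.173 CPM in p66High aggressive tumours, 0.631, 0.141 and 6.30 CPM in p66High parental tumours, 53.0, 128 and 7.31 CPM in p66Low aggressive tumours, and 0.621, 0.812 and 0.520 CPM in p66Low parental tumours. Mzb1, a chaperone of antibody-secreting and marginal zone B cells, had 0.406, 0.236 and 0 CPM in p66High aggressive tumours, 0.158, 0.141 and 0.814 CPM in p66High parental tumours, 7.14, 9.37 and 0.514 CPM in p66Low aggressive tumours, and 0.243, 0 and 0.312 CPM in p66Low parental tumours. Vpreb3, a surrogate light chain-like protein of B cells, had 0.0508, 0 and 0 CPM in p66High aggressive tumours, 0, 0 and 0.105 CPM in p66High parental tumours, 0.729, 1.10 and 0 CPM in p66Low aggressive tumours, and 0.0270, 0 and 0.0520 CPM in p66Low parental tumours. Igj was higher in p66Low aggressive replicate 3 than in p66High parental replicate 3. Per kilobase of exon, Igj had the second highest level of the 30 genes in p66Low aggressive replicates 1 and 2 (21.1 and 50.8 CPM per kb) and the ninth in p66High parental replicate 3 (2.50 CPM per kb).

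Chemokine receptors and their ligands were high in the same tumours. Cxcr5, which guides B cells to follicles, had 0.102, 0.118 and 0.0863 CPM in p66High aggressive tumours, 0.0451, 0.0704 and 1.44 CPM in p66High parental tumours, 4.95, 9.32 and 0.0571 CPM in p66Low aggressive tumours, and 0.135, 0.0812 and 0 CPM in p66Low parental tumours. Ccr7, which guides T cells, B cells and dendritic cells into the node, had 0.558, 0.236 and 0.0863 CPM in p66High aggressive tumours, 0.361, 0.281 and 4.45 CPM in p66High parental tumours, 14.4, 22.8 and 1.14 CPM in p66Low aggressive tumours, and 0.540, 0.162 and 0.676 CPM in p66Low parental tumours. Neither receptor overlapped between the 3 tumours and the other 9 tumours. Among the ligands, Ccl21a had 0.0508, 0 and 0.0863 CPM in p66High aggressive tumours, 0.135, 0 and 4.34 CPM in p66High parental tumours, 8.13, 15.7 and 0.0571 CPM in p66Low aggressive tumours, and 0 CPM in all 3 p66Low parental tumours. Ccl19, the other ligand of Ccr7, had 0 CPM in all 3 p66High aggressive tumours, 0.0902, 0 and 2.85 CPM in p66High parental tumours, 8.60, 10.9 and 0.0571 CPM in p66Low aggressive tumours, and 0, 0.0812 and 0 CPM in p66Low parental tumours. Cxcl13, the ligand of Cxcr5, had 0.254, 0 and 0.173 CPM in p66High aggressive tumours, 0.0902, 0 and 4.28 CPM in p66High parental tumours, 11.8, 14.6 and 0.542 CPM in p66Low aggressive tumours, and 0.270, 0.0812 and 0.0520 CPM in p66Low parental tumours. Ccl21a had no count in any p66Low parental tumour and Ccl19 none in any p66High aggressive tumour. Ccl21a and Ccl19 have near-identical copies, so their levels are uncertain: Ccl21b and Ccl21c were listed at 0 everywhere, and the highest count of any listed copy was 25.

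Of the venule genes Glycam1 and Enpp2 were high in the 3 tumours, and Madcam1 was low in all 12. Glycam1 (ENSMUSG00000022491, chr15:103562759-103565081, minus strand), a mucin that presents the L-selectin ligand on high endothelial venules and is also made by lactating mammary epithelium, had 0, 0 and 0.173 CPM in p66High aggressive tumours, 0.496, 0.0704 and 27.4 CPM in p66High parental tumours, 90.4, 133 and 0.300 CPM in p66Low aggressive tumours, and 1.22, 0.162 and 0.832 CPM in p66Low parental tumours. Enpp2 (autotaxin), an enzyme that makes lysophosphatidic acid and is secreted by these venules, had 1.57, 0.471 and 0.992 CPM in p66High aggressive tumours, 2.82, 2.50 and 17.1 CPM in p66High parental tumours, 36.3, 56.5 and 1.06 CPM in p66Low aggressive tumours, and 1.27, 0.487 and 0.884 CPM in p66Low parental tumours. Madcam1, an adhesion molecule for lymphocytes, had 0.0508, 0.0786 and 0 CPM in p66High aggressive tumours, 0.0902, 0 and 0.315 CPM in p66High parental tumours, 0.677, 0.557 and 0.0285 CPM in p66Low aggressive tumours, and 0.216, 0.0812 and 0.104 CPM in p66Low parental tumours. Per kilobase of exon Glycam1 ranked highest of the 30 genes in each of the 3 tumours, at 12.8 CPM per kb in p66High parental replicate 3, 42.4 in p66Low aggressive replicate 1 and 62.5 in p66Low aggressive replicate 2. Madcam1 did not exceed 0.677 CPM, and it was higher in p66Low aggressive replicate 1 than in replicate 2, on only 13 and 36 counts.

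Lymphotoxins, the ligands that maintain this stroma, were present outside the 3 tumours as well. Ltb had 3.98, 1.26 and 0.345 CPM in p66High aggressive tumours, 0.722, 1.34 and 9.15 CPM in p66High parental tumours, 27.7, 41.1 and 7.51 CPM in p66Low aggressive tumours, and 0.756, 1.46 and 0.572 CPM in p66Low parental tumours. Lta had 0.127, 0.157 and 0 CPM in p66High aggressive tumours, 0.0451, 0.141 and 0.407 CPM in p66High parental tumours, 0.990, 2.48 and 0.714 CPM in p66Low aggressive tumours, and 0, 0.0812 and 0 CPM in p66Low parental tumours. Ltb was higher in p66Low aggressive replicate 3 than in any of the other 8 tumours, and so was Lta, which exceeded p66High parental replicate 3 there. The windows of Ltb (chr17:35194257-35194506, plus strand) and Madcam1 (chr10:79664309-79664558, plus strand) are shown because lymphotoxin acts through NF-kappa-B. Both held a kappa-B motif, GGAAAGTCCC as printed here and searched with any letter at place 6, which was in 0.356% of all windows and in no other member with an entry. Capitals mark these letters in both windows, and GAGGAAG in Ltb.
Ltb: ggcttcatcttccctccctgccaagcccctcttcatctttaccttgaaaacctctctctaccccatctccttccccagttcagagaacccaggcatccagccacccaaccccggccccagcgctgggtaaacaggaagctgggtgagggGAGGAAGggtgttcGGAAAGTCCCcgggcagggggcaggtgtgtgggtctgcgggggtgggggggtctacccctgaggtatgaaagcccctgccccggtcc
Madcam1: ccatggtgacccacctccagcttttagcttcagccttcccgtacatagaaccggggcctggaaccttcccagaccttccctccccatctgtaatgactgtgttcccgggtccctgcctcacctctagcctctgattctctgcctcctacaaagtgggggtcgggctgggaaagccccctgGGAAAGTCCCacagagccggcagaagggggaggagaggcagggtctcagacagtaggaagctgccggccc
The 2 windows hold the same 10 letters at this motif. Ltb was called by edgeR in 3 of the 5 comparisons, and Madcam1 in 0.

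**Figure D3:**
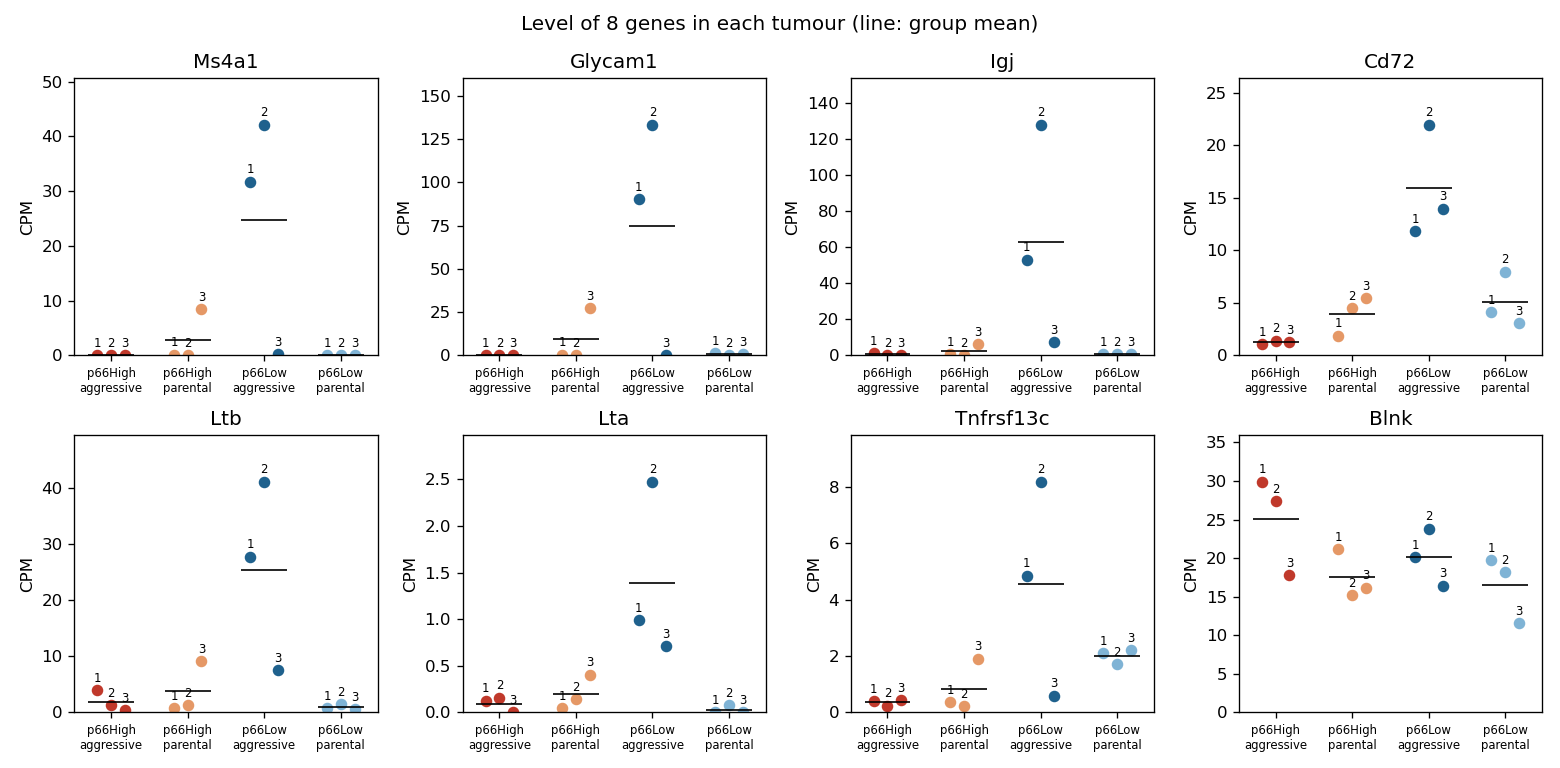
CPM of 8 genes in each tumour by group, with the replicate number above each point and a line at the group mean. Ms4a1 and Glycam1 are near 0 outside replicate 3 of p66High parental and replicates 1 and 2 of p66Low aggressive tumours, whereas Cd72, Ltb, Lta and Igj also have counts well above 0 in p66Low aggressive replicate 3 and Blnk is at 11.6 CPM or more everywhere.

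For most of the 30 genes the ratios between the 3 tumours were of similar size. The ratio of p66Low aggressive replicate 2 to replicate 1 had a median of 1.46 over the 30 genes and lay between 1 and 2 for 27 of them. It ran from 0.823 for Madcam1 (36 counts in replicate 2 and 13 in replicate 1) to 2.50 for Lta (160 and 19 counts), with 2.41 for Igj. The ratio of p66Low aggressive replicate 1 to p66High parental replicate 3 had a median of 3.18 and lay between 2 and 4 for 23 genes. The 7 genes outside this range were above it at 8.77 for Mzb1, 8.41 for Igj, 6.95 for Vpreb3, 5.31 for Fcrla and 4.56 for Cd79a, and below it at 1.87 for Ccl21a and 1.25 for Blnk. The widest departures above the median of this ratio were thus in Mzb1, Igj and Vpreb3, of which Vpreb3 rests on 14 against 8 counts. In the ratio of p66Low aggressive replicate 2 to replicate 1, Mzb1 (1.31) and Vpreb3 (1.51) were near the median, and only Igj departed in both ratios. These are ratios between single tumours, with no replicate check. The share of all genes in the ranges 1 to 2 and 2 to 4 was not counted, so these counts describe the members only.

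**Figure D4:**
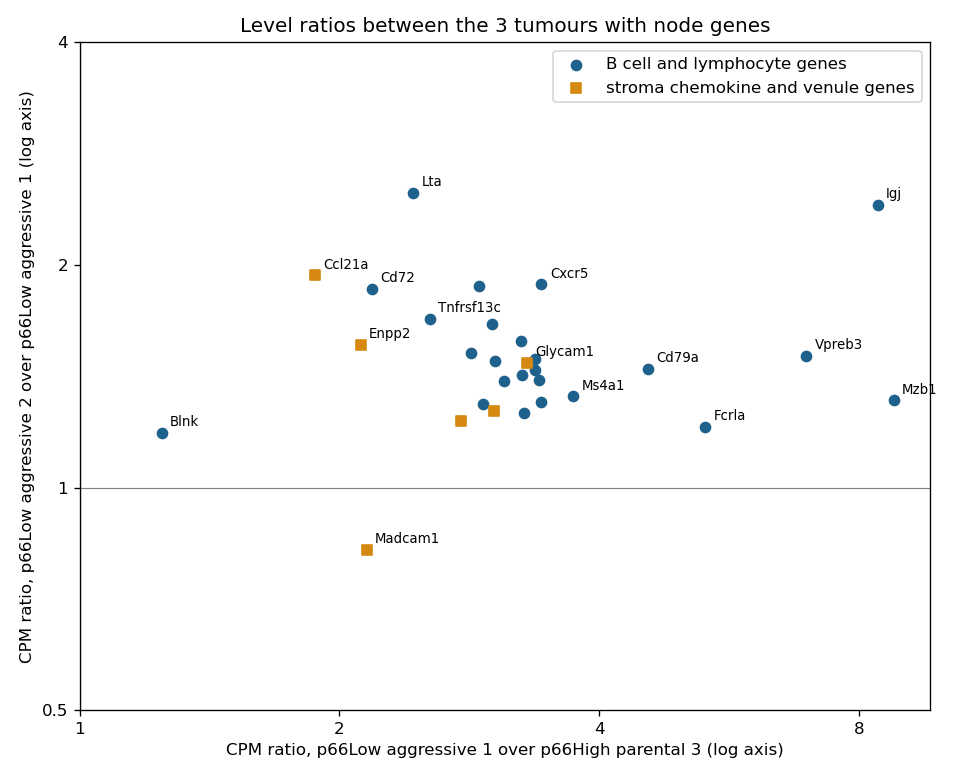
Ratio of CPM in p66Low aggressive replicate 2 over replicate 1 against the ratio in p66Low aggressive replicate 1 over p66High parental replicate 3 (both axes log), 1 point per gene, with circles for lymphocyte genes and squares for stroma genes. Most genes cluster near 3.18 on the horizontal axis and 1.46 on the vertical axis, with Igj, Mzb1 and Vpreb3 to the right and Blnk to the left.

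On average, tumours of p66High aggressive cells had less of these genes than tumours of p66Low aggressive cells. For most genes the difference was carried by p66Low aggressive replicates 1 and 2. In p66Low aggressive replicate 3 the 6 stroma genes summed to 2.04 CPM, against 0.550 to 1.93 CPM in p66High aggressive tumours. Its 9 B cell genes summed to 3.15 CPM, against 0.820 to 1.88 CPM. By edgeR's quasi-likelihood test with Benjamini-Hochberg adjustment over 19370 genes, 25 of the 29 members tested were lower and 0 were higher. Of all genes tested 12.1% were lower and 8.92% higher. Only 18 of the 29 members could be tested without the 3 tumours with node genes. The other members passed the filter on low counts only through those tumours, where they were high. Counts of members called are therefore a description, here and in the other comparisons. When the tumours that share a title number were summed, edgeR called 7 of 30 members, and limma-voom with all tumours called 2 of 29 (Cd72 and Lta). The groups did not overlap for 20 members, all lower, against 18.7% of all genes. For some of them the separation rests on few counts in p66Low aggressive replicate 3. Cd79a had 10 counts there, against 5, 2 and 3 in p66High aggressive tumours. Cr2, Ccl19 and Faim3 had 7, 4 and 2 counts there, against 0. The median log2 fold change was -5.32 over the members and 0.02 over all genes tested. Cd72 averaged 1.24 ± 0.187 CPM in p66High aggressive and 15.9 ± 5.34 CPM in p66Low aggressive tumours (SD, n = 3 each), a log2 difference of -3.70 (SE 0.47, edgeR adjusted p = 0.000512). Igj differed by -6.70 (SE 1.35, edgeR adjusted p = 0.00534), Fcrla by -5.08 (SE 1.18, edgeR adjusted p = 0.0109), Cd37 by -3.81 (SE 0.85, edgeR adjusted p = 0.00915) and Pou2af1 by -4.92 (SE 1.16, edgeR adjusted p = 0.0117). These 5 members passed whichever single tumour was left out. Glycam1 differed by -10.57 (SE 2.82, edgeR adjusted p = 0.0206), Enpp2 by -4.90 (SE 1.23, edgeR adjusted p = 0.0157), Ltb by -3.71 (SE 1.03, edgeR adjusted p = 0.0244) and Tnfrsf13c by -3.65 (SE 0.95, edgeR adjusted p = 0.0185), and each of them lost the call without p66High aggressive replicate 3, with adjusted p of up to 0.0846 over the tumours left out. Of genes with no count in p66High aggressive tumours, Cr2 was at least 775-fold lower, Ccl19 at least 167-fold and Faim3 at least 106-fold, against a floor of 3 counts over the group. These bounds rest mostly on p66Low aggressive replicate 2: without it they were 236-fold, 55.6-fold and 25.6-fold, and without replicate 3, which had 7, 4 and 2 counts, 1420.0-fold, 305-fold and 194-fold. Not called were Fcer2a, Ccl21a, Madcam1 and Blnk.

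The 3 tumours with node genes were picked by the levels of the members, so leaving them out was bound to make the median difference smaller. The same holds in the other comparisons. In each comparison the medians with and without the 3 tumours are over 29 and 18 members, so they are not over the same genes. Without them p66Low aggressive had 1 tumour left, assumed to vary like the other groups, and 18 members were tested. Of these members 2 were lower, where 3.65% of all genes were, and the median was -1.72. Cd72 then differed by -3.49 (edgeR adjusted p = 0.00883) and Igj by -3.64 (adjusted p = 0.0301). The sign turned for Cd79b (0.42, against -5.11 with all tumours) and Bank1 (1.80, against -4.68), and neither passed. Over all alternatives tried the adjusted p ranged from 3.33e-15 to 0.00883 for Cd72 and from 1.74e-06 to 0.165 for Igj. The number of members called was 5, 7 and 11 without p66High aggressive replicates 3, 2 and 1, 16 and 9 without p66Low aggressive replicates 1 and 2, and 29 without p66Low aggressive replicate 3.

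On average, tumours of p66Low aggressive cells had more of these genes than tumours of p66Low parental cells. For most genes this was carried by replicates 1 and 2. In p66Low aggressive replicate 3 the 6 stroma genes summed to 2.04 CPM, against 0.893 to 2.97 CPM in p66Low parental tumours. The 9 B cell genes summed to 3.15 CPM there, against 1.09 to 1.43 CPM. EdgeR called 22 of the 29 members higher and 0 lower, where 9.6% of all genes were higher and 7.03% lower. With tumours that share a title number summed the count was 15 of 30, in the fit of only these 2 groups 12 of 18, and by limma-voom 2 of 29 (Cd72 and Lta). The groups did not overlap for 15 members, all higher, against 16.2% of all genes. Here too some separations rest on few counts in p66Low aggressive replicate 3. Cd79a had 10 counts there, against 4, 0 and 1 in p66Low parental tumours, and Ccl21a had 4, against 0. The median log2 fold change was 5.93 over the members and -0.02 over all genes. Fcrla differed by 7.67 (SE 1.49, edgeR adjusted p = 0.00638), Igj by 6.61 (SE 1.34, edgeR adjusted p = 0.00764) and Lta by 5.89 (SE 1.18, edgeR adjusted p = 0.00725), and these passed whichever single tumour was left out. Ltb averaged 25.4 ± 16.9 CPM in p66Low aggressive and 0.930 ± 0.469 CPM in p66Low parental tumours (SD, n = 3 each), a log2 difference of 4.81 (SE 1.10, edgeR adjusted p = 0.0137) that was lost without p66Low parental replicate 1 or 3. Among receptor and transcription genes, Ms4a1 differed by 10.04 (SE 2.59, edgeR adjusted p = 0.0227), Cd79b by 5.93 (SE 1.44, edgeR adjusted p = 0.0174), Spib by 5.82 (SE 1.41, edgeR adjusted p = 0.0174) and Cd72 by 1.67 (SE 0.42, edgeR adjusted p = 0.0202). Among stroma genes, Enpp2 differed by 5.11 (SE 1.24, edgeR adjusted p = 0.0174), Cxcl13 by 5.98 (SE 1.75, edgeR adjusted p = 0.0373) and Glycam1 by 6.58 (SE 2.03, edgeR adjusted p = 0.0463). All 7 of these lost the call without p66Low aggressive replicate 2 and without p66Low parental replicate 3, with adjusted p of up to 0.139. Ccl21a, with no count in p66Low parental tumours, was at least 255-fold higher, and Fcer2a, which was not called, at least 243-fold. Without p66Low aggressive replicate 2 these bounds were 59.8-fold and 80.8-fold, and without replicate 3, which had 4 and 10 counts, 467-fold and 443-fold. The other members not called were Cr2, Faim3, Blnk, Tnfrsf13c, Ccl19 and Madcam1.

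With the 3 tumours with node genes left out, 1 of 18 members was called in this comparison, against 2.59% of all genes higher, and the median was 1.31. That member was Igj, at 3.49 (edgeR adjusted p = 0.0413, with a range of 5.92e-06 to 0.124 over all alternatives). Lta at 4.88 and Fcrla at 4.99 had adjusted p of 0.0819 and 0.0567, with ranges of 0.000166 to 0.0819 and 1.55e-06 to 0.108 over all alternatives. The sign turned for 5 members, which were Glycam1 (-1.33), Pou2af1 (-0.66), Bank1 (-1.74, against 4.74 with all tumours), Tnfrsf13c (-1.75) and Blnk (-0.00836), none of which passed. The number of members called was 5, 8 and 3 without p66Low parental replicates 1, 2 and 3, and 13 and 4 without p66Low aggressive replicates 1 and 2.

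**Figure D5:**
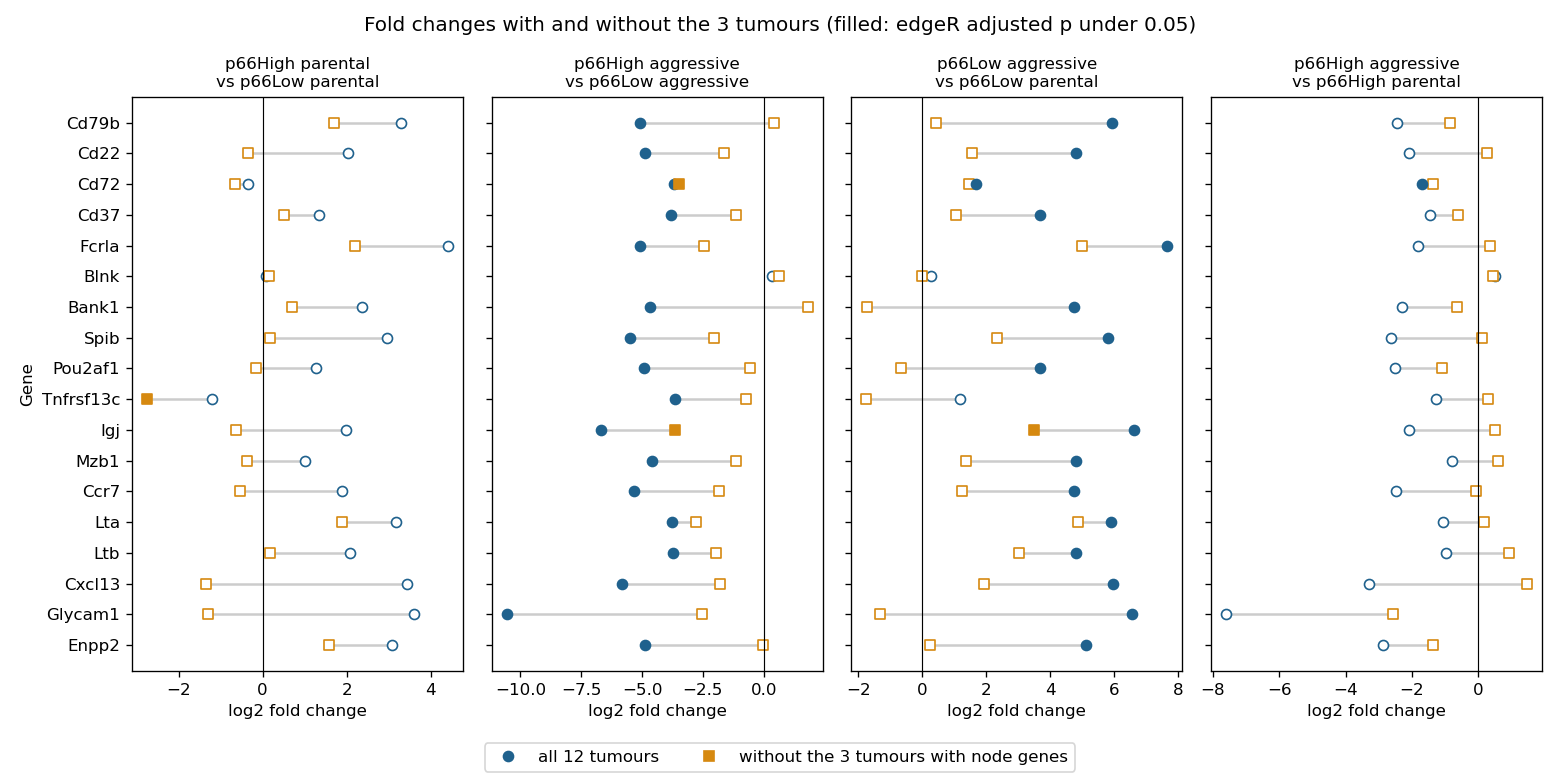
Log2 fold change of the 18 members that could be tested both with all 12 tumours (circles) and without the 3 tumours with node genes (squares), in the 4 comparisons between groups, with filled symbols for edgeR adjusted p under 0.05. Most circles lie far from 0 in the comparisons that involve p66Low aggressive tumours and most squares lie nearer to 0, whereas Cd72 keeps its sign in every panel.

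Between p66High parental and p66Low parental tumours, 0 of 29 members were called by edgeR, where 8.08% of all genes were called, and 8 members had an unadjusted p under 0.05, all higher. DESeq2 called Ccl21a, Fcrla and Ms4a1. The median log2 fold change was 3.07. The groups did not overlap for 3 members, all higher (Cd79b, Bank1 and Enpp2), against 15.6% of all genes higher without overlap. Enpp2 differed by 3.07 (SE 1.17, edgeR adjusted p = 0.139) and Cd79b by 3.29 (SE 1.36, edgeR adjusted p = 0.172), and both passed when p66Low aggressive replicate 3 was left out (edgeR adjusted p from 0.0285 and 0.0430 up to 0.476 and 0.547 over the tumours left out). In the fit of the other 9 tumours the median was 0.00 over 18 members, and Tnfrsf13c was called lower, at -2.76 (edgeR adjusted p = 0.0114) against -1.21 (SE 0.84, edgeR adjusted p = 0.422) with all tumours. Over all alternatives its adjusted p ranged from 0.0114 to 0.682. Of all genes 1.74% were called lower in that fit.

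Between p66High aggressive and p66High parental tumours, 1 of 29 members was called by edgeR, and 0 of 30 with tumours that share a title number summed and 0 of 29 by limma-voom, with 3 and 1 at an unadjusted p under 0.05. Cd72 averaged 1.24 ± 0.187 CPM in p66High aggressive and 3.94 ± 1.83 CPM in p66High parental tumours (SD, n = 3 each), with a log2 difference of -1.68 (SE 0.45, edgeR adjusted p = 0.0492), where 2.82% of all genes were lower. Over the 12 fits that left out 1 tumour the log2 difference was -2.02 to -1.38 and the edgeR adjusted p 0.0240 to 0.147. The call was lost in 9 of them, those without p66High aggressive replicate 1, 2 or 3, p66High parental replicate 2 or 3, p66Low aggressive replicate 1, 2 or 3, or p66Low parental replicate 1. The groups did not overlap for 5 members, all lower (Cd79b, Cd72, Bank1, Pou2af1 and Enpp2), against 16% of all genes, and the median log2 fold change was -2.47. In the fit of the other 9 tumours it was 0.15, and 0 of 18 members were called, where 2.88% of all genes were, with Cd72 at -1.36 (edgeR adjusted p = 0.153, with a range of 0.00278 to 0.166 over all alternatives).

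The change with selection was tested for a difference between p66High and p66Low cells as an interaction. EdgeR called 26 of 29 members, all with a more negative change in p66High than in p66Low cells, where 7.99% of all genes had one, with a median of -8.46. Cd72 at -3.35 (SE 0.61, edgeR adjusted p = 0.00868), Cd37 at -5.14 (SE 1.16, edgeR adjusted p = 0.0174), Fcrla at -9.49 (SE 1.93, edgeR adjusted p = 0.0120) and Enpp2 at -7.98 (SE 1.69, edgeR adjusted p = 0.0140) passed whichever single tumour was left out. Blnk, Tnfrsf13c and Madcam1 were not called. With tumours that share a title number summed 8 of 30 members were called. Members called numbered 5 without p66High parental replicate 3, 5, 11 and 17 without p66Low parental replicates 3, 1 and 2, 16 and 11 without p66Low aggressive replicates 1 and 2, and 13, 11 and 11 without p66High aggressive replicates 1, 2 and 3. In the fit of the other 9 tumours 0 of 18 members were called by edgeR, where 1.65% of all genes were, Bank1 turned sign there (1.09, against -7.05 with all tumours), and limma-voom with all tumours called Cd72 alone. The comparisons share groups of tumours, so their counts are not independent.

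Other genes of B cells and of the node were counted from 17 lists. Among 9 immunoglobulin constant genes the summed level was 9.90, 4.24 and 1.55 CPM in p66High aggressive tumours, 7.04, 5.45 and 37.2 CPM in p66High parental tumours, 266, 635 and 35.2 CPM in p66Low aggressive tumours, and 5.32, 5.93 and 2.99 CPM in p66Low parental tumours.

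In p66Low aggressive against p66Low parental tumours edgeR called 14 of 15 other B cell genes higher, 8 of 9 immunoglobulin constant genes, 11 of 16 genes of the B cell receptor pathway, 10 of 14 of the lymphotoxin receptor pathway and 9 of 12 of homing and egress. Of all genes 9.6% were called higher there. It also called 5 of 11 genes of follicular dendritic and reticular cells, 2 of 8 other venule genes, 2 of 6 germinal centre genes, 1 of 6 lymphatic genes, 1 of 5 node macrophage genes, 7 of 8 naive T cell genes and 15 of 15 T cell genes higher. Of 7 plasma cell genes 2 were higher and 2 lower, and of 7 macrophage genes 3 were higher. Counts such as 1 of 6, 1 of 5 and 2 of 8 are too small to be read as departing from the share over all genes. None of 10 adipocyte, 3 skeletal muscle or 6 epithelial genes passed edgeR there. Among the genes with the smallest p of their lists were Inpp5d, a lipid phosphatase of receptor signalling, at 1.39 (SE 0.22, edgeR adjusted p = 0.00264), Tnfrsf1b, a TNF receptor, at 1.54 (SE 0.20, edgeR adjusted p = 0.000919), Itga4, an integrin chain, at 2.51 (SE 0.44, edgeR adjusted p = 0.00396), and Icos, a T cell co-stimulator, at 6.75 (SE 1.18, edgeR adjusted p = 0.00389). In p66High aggressive against p66Low aggressive tumours 14 of 15 other B cell genes, 8 of 9 immunoglobulin, 13 of 16 receptor pathway, 9 of 14 lymphotoxin pathway, 11 of 12 homing and 14 of 15 T cell genes were lower, where 12.1% of all genes were. In the fit of the other 9 tumours these counts were 2 of 14, 1 of 7, 2 of 15, 3 of 14, 0 of 12 and 2 of 15, where 3.65% of all genes were. Also lower with all tumours were 6 of 8 naive T cell, 5 of 7 macrophage, 6 of 11 follicular dendritic and reticular cell, 2 of 5 node macrophage, 2 of 7 plasma cell, 2 of 8 other venule, 2 of 10 adipocyte, 1 of 6 lymphatic and 1 of 6 germinal centre genes, and 0 of 3 skeletal muscle and 0 of 6 epithelial genes. Higher in this comparison were 1 homing, 1 other venule and 1 germinal centre gene, where 8.92% of all genes were. In the fit of the other 9 tumours p66Low aggressive against p66Low parental tumours had 1 of 14 other B cell, 2 of 7 immunoglobulin, 1 of 15 receptor pathway, 2 of 14 lymphotoxin pathway, 0 of 12 homing and 3 of 8 naive T cell genes higher, where 2.59% of all genes were.

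T cell genes were high in the same 3 tumours and also in p66Low aggressive replicate 3. Their summed level over 15 genes was 22.4, 18.9 and 9.40 CPM in p66High aggressive tumours, 19.3, 14.8 and 64.3 CPM in p66High parental tumours, 182, 294 and 57.6 CPM in p66Low aggressive tumours, and 12.6, 13.4 and 13.1 CPM in p66Low parental tumours. In p66Low aggressive replicate 3, where the 9 B cell genes summed to 3.15 CPM, the T cell sum was higher than in any of the other 8 tumours, and so were 14 of its 15 genes, all but Thy1, and 13 of the 30 members, where 18.1% of all genes tested were. In the fit of the other 9 tumours p66Low aggressive replicate 3 was the only tumour of its group. The median log2 fold change there, against p66Low parental tumours, was 3.58 over 15 T cell genes and 1.31 over 18 members. With all tumours Cd8a, a chain of the co-receptor of cytotoxic T cells, differed by 5.36 (SE 0.97, edgeR adjusted p = 0.00443) and Cd3g, a chain of the T cell receptor complex, by 5.33 (SE 0.96, edgeR adjusted p = 0.00443). The lymph node macrophage list summed to 26.5, 62.1 and 71.3 CPM and the lymphatic list to 23.2, 34.9 and 58.6 CPM in p66High parental replicate 3 and p66Low aggressive replicates 1 and 2, and to 4.96 to 23.4 and 4.25 to 19.5 CPM in the other 9 tumours. The genes of these lists did not all follow their sums. In p66High parental replicate 3 only Cd209b, Marco, Prox1, Mmrn1 and Stab2 were above all of the other 9 tumours. Siglec1, Cd5l, Cd209a, Lyve1, Flt4 and Reln were not. Of the lymphatic list Ccl21b and Ccl21c were at 0. The part of node tissue in the differences between groups was not tested.

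The non-members most like the 30 genes were ranked by Pearson's r of log2 CPM with the mean of the members over the 12 tumours. Among the 10 highest were B3gnt5 (r = 0.985), Serpina10 (0.984), Adam6b (0.983), Cacna1i (0.983), Bcl11b (0.982), Myo16 (0.982), Il9r (0.979), Slc4a8 (0.978) and Siglecg (0.977). The 3 tumours with node genes set these values, so r is only a measure of likeness. B3gnt5, a glycosyltransferase, had 0.558, 0.157 and 0.173 CPM in p66High aggressive tumours, 0.271, 0.211 and 1.96 CPM in p66High parental tumours, 7.82, 10.6 and 0.442 CPM in p66Low aggressive tumours, and 0.270, 0.325 and 0.234 CPM in p66Low parental tumours. Il9r, an interleukin receptor chain, had 0.152, 0 and 0 CPM in p66High aggressive tumours, 0.0451, 0 and 2.52 CPM in p66High parental tumours, 7.24, 12.0 and 0.228 CPM in p66Low aggressive tumours, and 0, 0.0812 and 0.0520 CPM in p66Low parental tumours. Among the members r ran from 0.151 for Blnk and 0.695 for Cd72 to 0.991 for Fcer2a.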

How the data were processed

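Total RNA of 12 bulk tumours went into stranded libraries after removal of ribosomal RNA, per the labels' protocols. Reads were processed with Trimmomatic 0.32, STAR 2.3.0e and featureCounts 1.4.4 on mm10, per the submitters' processing notes. The deposited values are whole-number read counts per gene, not normalized. Which annotation and strand setting were used, and how multi-mapping reads were treated, is not given in the sources used here. Between 65.8 and 73.7% of the counts from 1 to 10 were even, so mates of a pair may have been counted separately, and floors and intervals (95%), which cover counting error only, may be too narrow.

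Of 39017 identifiers, 96.6% matched GENCODE vM21, which gave coordinates and exon lengths, and 9307 genes were 0 in every tumour. Tumours of a group differed beyond sampling noise (chi-square over its degrees of freedom at least 15.9), and all 12 were kept. In R 4.3.3, edgeR 4.0.16 filtered genes with filterByExpr (19370 kept, 29 of 30 members; Vpreb3 was not kept), scaled by TMM and fitted a quasi-likelihood F-test to 4 groups, leaving 8 residual degrees of freedom. Adjustment was by Benjamini-Hochberg across the genes kept (threshold 0.05). The SE of a log2 fold change is its size over the square root of F. The fit was tested on simulated data. DESeq2 1.42.0, limma 3.58.1 (voom), other scalings and filters, and leaving out tumours were alternatives.

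The members and lists were chosen with earlier results of these data known. Values per tumour are printed for members that passed in any comparison, had no count in a group, or were among the 3 highest of their role. Non-members named are from the 10 most alike and up to 4 genes a list with the smallest p. Also named, chosen after their values were seen, are Thy1, Ighg1, Ighe and genes of the lymph node macrophage and lymphatic lists. Some genes that these rules name are not reported here. Protein sequences were not used here.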

Additional observations from a re-analysis of the deposited data

Results flagged for a closer look

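The change with selection was tested for a difference between p66High and p66Low cells, and edgeR called 26 of the 29 members. Values for 5 of these members are given here. The interaction on the log2 scale was -3.35 for Cd72 (edgeR adjusted p = 0.00868), -5.14 for Cd37 (edgeR adjusted p = 0.0174), -9.49 for Fcrla (edgeR adjusted p = 0.0120) and -7.98 for Enpp2 (edgeR adjusted p = 0.0140). These 4 passed whichever single tumour was left out. Bank1, at -7.05 (edgeR adjusted p = 0.0298), did not: the call was lost in 9 of the 12 fits that left out 1 tumour, those without p66High aggressive replicate 1, 2 or 3, p66High parental replicate 3, p66Low aggressive replicate 1 or 2, or p66Low parental replicate 1, 2 or 3 (adjusted p 0.00205 to 0.0844). Cd72 was -1.68 in p66High aggressive against p66High parental tumours and 1.67 in p66Low aggressive against p66Low parental tumours. Over all alternatives the interaction ran from -5.64 to -1.67 for Cd37 and from -12.52 to -4.64 for Fcrla. Limma-voom with all tumours called Cd72 alone among the members. Without the 3 tumours with node genes the interaction was -2.84 for Cd72 and -1.59 for Enpp2, and neither passed (edgeR adjusted p = 0.0858 and 0.350, with ranges of 1.89e-06 to 0.0858 and 2.44e-05 to 0.350 over all alternatives).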

How the results depend on the processing

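Without the 3 tumours with node genes, genes called numbered 838 (p66High against p66Low parental, 1565 with all tumours), 1075 (p66High against p66Low aggressive, 4077), 705 (p66Low aggressive against parental, 3221), 586 (p66High aggressive against parental, 1150) and 335 (interaction, 2395), and members called 1, 2, 1, 0 and 0 against 0, 25, 22, 1 and 26. Fewer tumours were in that fit, and those left out were picked by the levels of the members. In p66Low aggressive against parental tumours, Glycam1 (-1.33), Pou2af1 (-0.66), Bank1 (-1.74), Tnfrsf13c (-1.75) and Blnk (-0.00836) turned sign there, and in p66High against p66Low aggressive tumours Cd79b (0.42) and Bank1 (1.80) did, as did Bank1 in the interaction (1.09). DESeq2 called 2549 genes and 3 members in p66High against p66Low parental tumours, and 2261 genes and 3 members (Cd72, Cr2 and Glycam1) in p66High aggressive against parental tumours. Limma-voom called 2 members (Cd72 and Lta) both between the aggressive groups and between the p66Low groups, 0 between the p66High groups and 1 (Cd72) in the interaction. Fits of only the groups compared called 14 of the 17 members they tested between the aggressive groups and 12 of 18 between the p66Low groups, and 2128 genes in p66Low aggressive against parental tumours. They cannot give the interaction. With tumours that share a title number summed, 908, 305 and 1179 genes (p66High against p66Low parental, p66High aggressive against parental, interaction) and 7, 0 and 8 members (p66High against p66Low aggressive, p66High aggressive against parental, interaction) were called. For these alternatives the cause was not tested. Leaving out 1 tumour gave 871 to 1927, 2438 to 4502, 1545 to 3505, 457 to 1469 and 1179 to 3278 genes, and 0 to 2, 5 to 29, 3 to 27, 0 to 1 and 5 to 27 members, in the order of the opening sentence. Scaling and filters changed no count of calls by over 1.5 times. A floor of 6 counts, chosen after seeing the data, made the bounds 2 times lower, and the bounds without single tumours in the report were also chosen then. Setting members with a group at 0 to their bound changed no median in the 4 comparisons between groups.

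No paired analysis was possible because the labels give the groups no shared replicate numbers. Depth limits genes with few counts: 2 to 11 members had no count in each of the 9 tumours without node genes.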

Other observations

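Among immunoglobulin constant genes, Ighg1, an IgG heavy chain, reached 100.4 and 173 CPM in p66Low aggressive replicates 1 and 2 and 6.78 CPM in p66High parental replicate 3. Igha, the IgA heavy chain, was at 134 CPM in p66Low aggressive replicate 2, against 7.61 in replicate 1 and 17.97 in replicate 3, while Ighe, the IgE heavy chain, had 4.23, 10.4 and 8.34 CPM in p66High parental replicate 3 and p66Low aggressive replicates 1 and 2 and 0.0285 CPM or less in the other 9.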
